A study of Mus musculus with 7 samples.

Results

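The genes described here sense DNA and RNA in the cytosol of dendritic cells or pass that signal on to interferon production. They are 10 of the 28666 genes in the deposited table, chosen by symbol: Cgas, Sting1, Tbk1 and Ikbke of the DNA and STING arm, Ddx58, Ifih1, Dhx58 and Mavs of the RNA arm, the DNA exonuclease gene Trex1, and Zbp1, a sensor of left-handed nucleic acid. All 10 symbols were found, all 10 are single protein-coding genes, and all 10 passed the filter on low counts with 484 to 9780 counts per library.

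Bulk RNA-seq was compared between immature bone marrow-derived dendritic cells (BMDCs; 3 libraries) and mature BMDCs (4 libraries). Bone marrow of female C57BL/6 mice aged 6 to 8 weeks was cultured for 7 days with GM-CSF and IL-4. The cells of both groups then shared Transwells with MC38, a mouse colon carcinoma line, and were separated by flow sorting into mature and immature cells. The text of the study gives 24 h of the glutamine antagonist DON, a figure legend of the study gives DMSO or DON at 5 μM, and the sample labels assign no agent to any library. The markers of this sort and the number of mice behind each library are not given in the sources used here, so p-values measure the spread between these libraries. Cultures with GM-CSF are known to hold macrophage-like cells beside dendritic cells.

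In the DNA arm, cGAS binds double-stranded DNA and makes the cyclic dinucleotide cGAMP, which binds STING on the endoplasmic reticulum. STING then recruits the kinase TBK1, with IKKε (Ikbke) as its close relative, and TBK1 phosphorylates the transcription factor IRF3, which switches on type I interferon. In the RNA arm, RIG-I (Ddx58) and MDA5 (Ifih1) bind viral RNA and engage MAVS on mitochondria, which leads to the same kinases, while LGP2 (Dhx58) regulates both receptors. TREX1 degrades cytosolic DNA before cGAS can bind it.

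Many of these genes are themselves known targets of interferon, so promoter sequence is shown for the members with a match to the core of the interferon-stimulated response element (ISRE). The core was searched as GAAANNGAAA on both strands, from 250 bases before to 50 bases after each RefSeq start (build GRCm38.p6). A promoter was given there for 7 of the 10 members, and 2 of the 7 genes held a match, Ddx58 and Ifih1. Counted per gene in the same way, 3.92% of 11651 tested genes held one, and 9 of 16 genes of an interferon-stimulated list. Counted per promoter, it was 3.44% of all 32851. A shorter spacing, GAAANGAAA, was searched after the Ddx58 promoter had been seen. It occurred in 1 of the 7 genes, in 3.02% of tested genes, in 3 of the 16 genes and in 3.17% of all promoters. The printed stretches run 5′ to 3′ on the minus strand, from which both genes are read, with the match in capitals.
Ddx58, chr4:40239851-40239910, bases 85 to 26 before the start, with GAAANGAAA at bases 60 to 52 before it: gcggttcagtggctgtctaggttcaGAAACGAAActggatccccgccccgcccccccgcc
Ddx58, chr4:40239804-40239833, the last 8 bases before the start and the first 22 transcribed bases, with GAAANNGAAA read on the opposite strand: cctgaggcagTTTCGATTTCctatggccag
Ifih1, chr2:62646206-62646235, transcribed bases 21 to 50 from the RefSeq start, with GAAANNGAAA: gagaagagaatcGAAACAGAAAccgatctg

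For Ddx58 the RefSeq start is that of the deposited table, and for Ifih1 it lies 44 bases upstream, so by the deposited coordinates the Ifih1 match lies before the gene. These letters are a description of the sequence and no evidence that a factor was bound there. The promoters of Cgas, Tbk1, Ikbke, Mavs and Trex1 held neither spacing in this window. Dhx58, Zbp1 and Sting1 were not searched.

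Levels within a gene are given as CPM, counts relative to each library total scaled with TMM factors. Between genes they are given as FPKM, which divides by transcript length and was used as deposited, with no TMM factors applied. A change was called at an adjusted p under 0.05 in edgeR's quasi-likelihood test, with Benjamini-Hochberg adjustment over the 17461 genes tested, and called past the criteria where it also reached a log2 fold change of 1 in either direction. Log2 fold changes are mature over immature throughout, and the median of all tested genes was 0.055. Past the criteria was 1 of the 10 members, Ddx58, against 23.1% of all genes tested. Adjusted p was under 0.05 for 6 members, against 46.1% of all genes. Of these, 5 were lower in mature cells (Tbk1, Ikbke, Ddx58, Ifih1 and Mavs), against 22.9% of all genes, and 1 was higher (Trex1), against 23.2%. Among all genes, 13.2% were past the criteria and higher and 9.95% past them and lower. The ranges of the groups did not overlap for 8 members, against 52.1% of genes tested, with mature cells higher in 3 (25.4% of genes) and lower in 5 (26.7%). The members' median log2 fold change was -0.23.

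**Figure D1:**
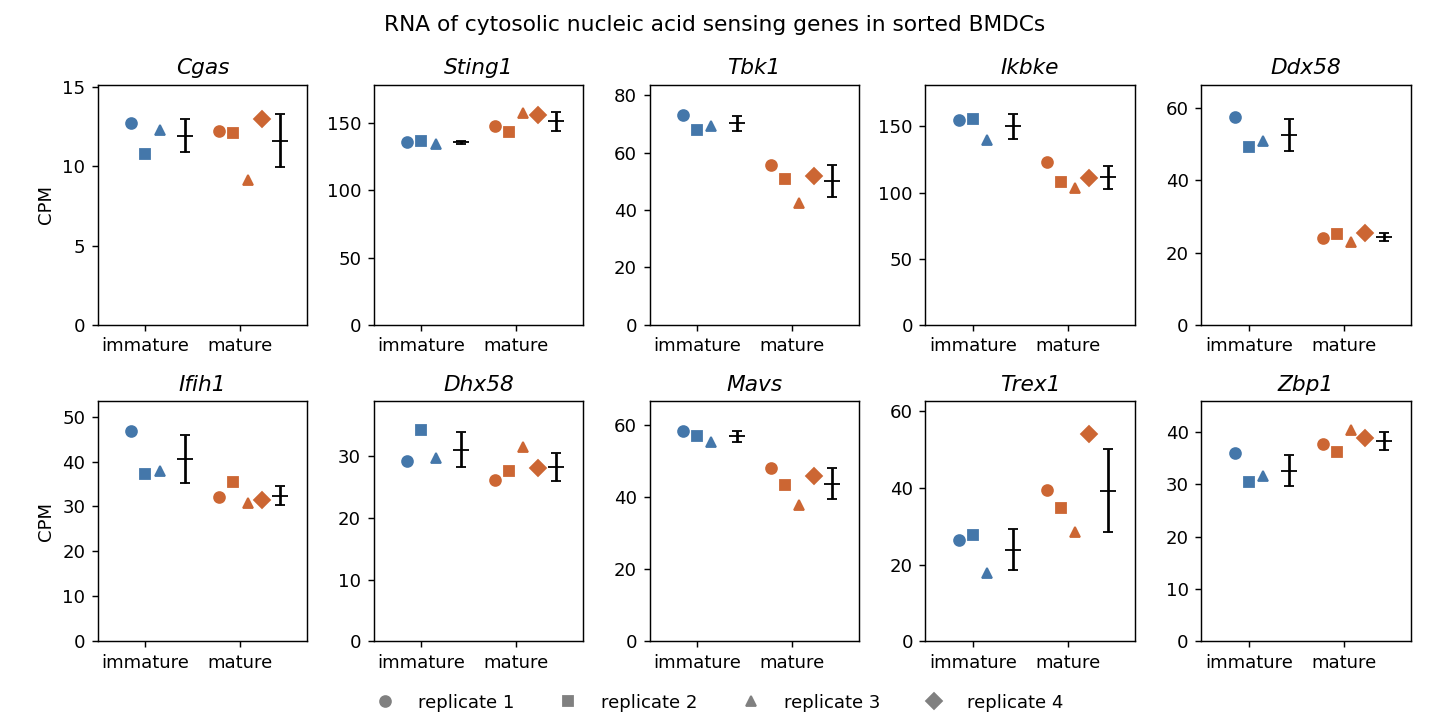
CPM of the 10 genes in each library, by group, on axes that start at 0; marker shapes give the replicate number and black bars the mean ± SD over 3 immature or 4 mature libraries. Ddx58 fell from between 49.2 and 57.6 CPM to between 22.9 and 25.4 CPM, while the ranges of Cgas and Dhx58 overlapped.

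The libraries had 54846746 to 67973086 counts. For the members, mature replicate 3 stood apart: it was the lowest mature library for 7 of the 10 and the highest for the other 3. It was lowest for 36.4% and highest for 38.0% of all tested genes. Its deviations from the mature mean fell with transcript length as implied by counts over FPKM (Spearman's rho over 17461 genes -0.37, against 0.18 to 0.28 in the other mature libraries), as a description over genes that are not independent. Over all tested genes, mature replicate 1 deviated at least as much from the other mature libraries. The SD of its log2 deviations was 0.897, against 0.835 in mature replicate 3, 0.618 in replicate 2 and 0.571 in replicate 4. Results that rest on mature replicate 3 are given with and without it.

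Dendritic cell markers were detected in both groups, at unequal levels. Itgax, which encodes CD11c, was at a mean of 1386 CPM in immature and 1041 CPM in mature cells. Zbtb46 was at 25.6 and 106 CPM, Cd40 at 4.62 and 30.9 CPM, and Flt3 at only 0.438 and 5.97 CPM. Of 10 dendritic cell markers, 6 were past the criteria and higher in mature cells, among them Cd80 and Cd86, by which the study identifies mature dendritic cells elsewhere, so these are no independent check of the sort. Itgax was lower in mature cells (log2 fold change -0.41, edgeR adjusted p = 0.0124). The summed level of the 10 was 10390 to 11124 CPM in immature and 14060 to 19774 CPM in mature libraries. This sum was mostly Cd74, at a mean of 6604 and 8754 CPM. Its edgeR adjusted p was 0.0542, and 0.0046 without mature replicate 3. All 10 macrophage markers were past the criteria and lower in mature cells, at a summed 2379 to 2476 CPM in immature against 441 to 505 CPM in mature libraries. All 10 cardiac muscle markers were past the criteria and higher, at a summed 5.06 to 5.61 CPM in immature libraries, 27.1 CPM in mature replicate 1 and 721 to 851 CPM in mature replicates 2, 3 and 4. The sum in mature replicate 1 was mostly Tnni3, at 23.98 CPM. The groups did not overlap for 7 of these 10 markers. For the others, Myh6, Mb and Nppa, mature replicate 1 lay within or below the immature range. Summed granulocyte markers were at 25.2 to 28.8 CPM against 2.99 to 7.53 CPM, lymphocyte markers at 1.95 to 2.35 CPM against 3.89 to 5.92 CPM, and epithelial markers, for the tumor line, at 69.9 to 77.3 CPM against 59.2 to 69.7 CPM. The granulocyte sum was mostly Cebpe (a mean of 24.4 and 2.95 CPM), while S100a9 and Ly6g were not called. In the lymphocyte list Cd8a (1.09 and 3.09 CPM) was past the criteria and higher, and Cd3e, Cd3d, Cd4 and Cd79a were not called. The epithelial sum was mostly Cdh1 (55.2 and 51.5 CPM), and Epcam was past the criteria and higher, at 0.268 and 1.28 CPM. No marker listed in the table was at 3 or fewer counts in every library. The part of these markers in the members' differences was not tested. In bulk RNA, fewer cells of a type and less RNA per cell cannot be told apart.

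Cgas (ENSMUSG00000032344, chr9:78430526-78443237 on GRCm38), the DNA sensor itself, had 12.7, 10.8 and 12.3 CPM in immature replicates 1 to 3 and 12.2, 12.1, 9.15 and 13.0 CPM in mature replicates 1 to 4. The groups overlapped, and the lowest value of all 7 was that of mature replicate 3. Its log2 fold change was -0.039 (SE 0.15, 95% interval -0.37 to 0.29, edgeR adjusted p = 0.851). The interval leaves room for a mature level between 77.3% and 123% of the immature level. The sign was not stable: it was 0.084 without mature replicate 3, and the mean FPKM was higher in mature cells, at 2.68 against 2.54.

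Sting1 (ENSMUSG00000024349, chr18:35733679-35740489), the adaptor that cGAMP binds, had 136, 137 and 134 CPM in immature and 148, 143, 158 and 156 CPM in mature replicates. Every mature library was above every immature library, by a small margin, with an SD of 1.14 CPM between immature replicates. The log2 fold change was 0.16 (SE 0.071, 95% interval -0.0037 to 0.32), and edgeR's adjusted p of 0.101 missed the threshold. Without mature replicate 3 the adjusted p was 0.0164 at nearly the same fold, 0.16, with a smaller SE of 0.048. The interval from all 7 libraries reached a mature level of 125% of the immature level at most.

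Tbk1 (ENSMUSG00000020115, chr10:121546455-121586787), the kinase STING recruits, had 73.1, 68.1 and 69.4 CPM in immature and 55.7, 50.9, 42.4 and 51.8 CPM in mature replicates. All mature values were below all immature values, and mature replicate 3 was the lowest. The mature level was 71.5% of the immature level (95% interval 60.9% to 84.0%), a log2 fold change of -0.48 (SE 0.10, edgeR adjusted p = 0.00449). Without mature replicate 3 it was -0.39, with an adjusted p of 3.53e-04.

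Ikbke (ENSMUSG00000042349, chr1:131254343-131279606), which encodes the related kinase IKKε, had 155, 156 and 139 CPM in immature and 123, 108, 103 and 111 CPM in mature replicates. The groups did not overlap. It fell to 74.3% of the immature level (95% interval 64.7% to 85.3%), a log2 fold change of -0.43 (SE 0.087, edgeR adjusted p = 0.00381), or -0.37 without mature replicate 3. Antisense genes on the other strand of its locus were at a mean of at most 1.9 CPM, and whether reads were counted by strand is not given in the sources used here.

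Both kinases fell by a similar amount, and their ratio did not separate the groups: Ikbke over Tbk1 in FPKM was 0.872 to 0.992 in immature and 0.920 to 1.05 in mature libraries. Sting1 over Tbk1 did separate them, at 2.65 to 2.86 in immature and 3.80 to 5.30 in mature libraries (2.76 ± 0.11 SD, n = 3, against 4.36 ± 0.66 SD, n = 4). The adaptor was thus more abundant per kinase transcript in every mature library, including replicates 1, 2 and 4, which lay between 3.80 and 4.31. This separation followed from the genes' own FPKM: every mature library was above every immature one for Sting1 and below for Tbk1. The ratio is therefore no separate result. Sting1 over Cgas overlapped, at 16.0 to 19.1 and 17.8 to 25.9.

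Ddx58 (ENSMUSG00000040296, chr4:40203773-40239825), which encodes the RNA receptor RIG-I and whose promoter is shown above, had 57.6, 49.2 and 50.9 CPM in immature replicates. Its mature replicates had 24.2, 25.1, 22.9 and 25.4 CPM. The mature libraries lay close together and far below every immature library. It fell to 46.4% of the immature level (95% interval 40.3% to 53.5%), a log2 fold change of -1.11 (SE 0.090, edgeR adjusted p = 1.67e-05). Adjusted p stayed under 0.05 in each of the 15 alternative fits, at a log2 fold change of -1.16 to -0.82, and -1.05 without mature replicate 3. The fold criterion was missed with library totals alone (-0.9992) and on FPKM values.

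Ifih1 (ENSMUSG00000026896, chr2:62595798-62646211), for the long-RNA receptor MDA5, had 46.8, 37.2 and 37.9 CPM in immature and 32, 35.5, 30.8 and 31.4 CPM in mature replicates. The gap between the groups was narrow, between 37.2 and 35.5 CPM, and immature replicate 1 was high. The log2 fold change was -0.33 (SE 0.11, 95% interval -0.57 to -0.081, edgeR adjusted p = 0.0356). This call was fragile and held in 3 of 15 alternatives: adjusted p was 0.157 without immature replicate 1, 0.0555 without immature replicate 3, 0.0705 without mature replicate 1 and 0.0904 without mature replicate 4. With the replicate number as a block it was 0.13.

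Dhx58 (ENSMUSG00000017830, chr11:100694884-100704271), for the regulator LGP2, had 29.2, 34.3 and 29.6 CPM in immature and 26.1, 27.5, 31.4 and 28.0 CPM in mature replicates. The groups overlapped. Its log2 fold change of -0.14 (SE 0.10, 95% interval -0.37 to 0.097) had an edgeR adjusted p of 0.313, and no alternative called it.

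Mavs (ENSMUSG00000037523, chr2:131234063-131248025), the mitochondrial adaptor, had 58.3, 57.1 and 55.3 CPM in immature and 48.0, 43.3, 37.9 and 46.0 CPM in mature replicates. The groups did not overlap, with mature replicate 3 lowest. It fell to 77.0% of the immature level (95% interval 66.1% to 89.6%), a log2 fold change of -0.38 (SE 0.096, edgeR adjusted p = 0.0116), and -0.29 without mature replicate 3. Adjusted p was 0.0544 without immature replicate 1.

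Within the RNA arm the receptors therefore shifted unequally. Dhx58 over Ddx58 in FPKM was 1.09 to 1.5 in immature and 2.33 to 2.97 in mature libraries. Ifih1 over Ddx58 rose from 0.667 ± 0.032 (SD, n = 3) to 1.15 ± 0.062 (SD, n = 4), so that MDA5 transcripts were the more abundant of the pair in every mature library and RIG-I transcripts in every immature library. Mavs over Ddx58 was 2.14 to 2.45 against 3.51 to 4.19. None of these 3 ratios overlapped between groups, but Ddx58 is in each, so they are not separate results. They were compared by range alone. How often ratios of other gene pairs separate the groups was not computed.

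**Figure D2:**
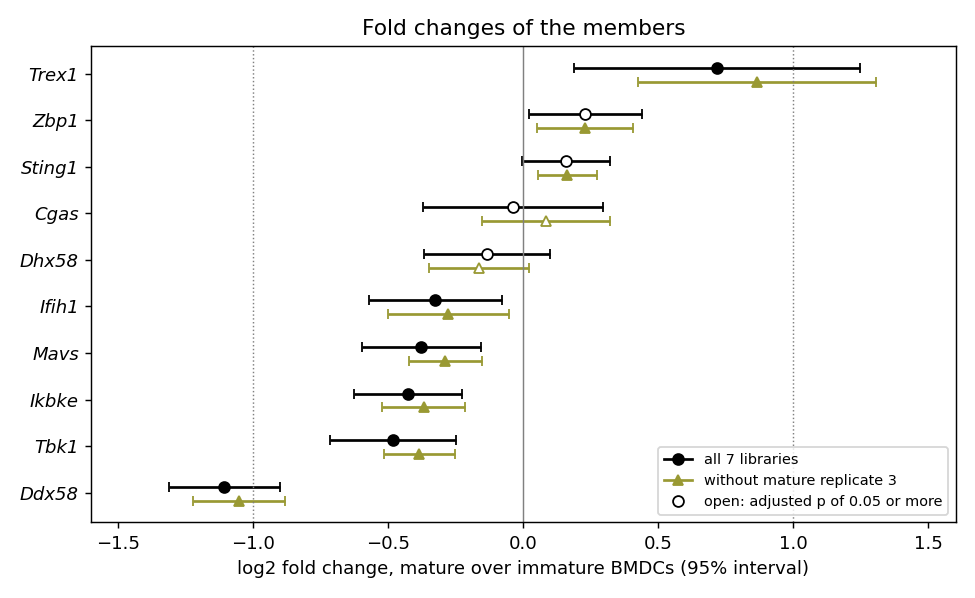
Log2 fold change (mature over immature) of the 10 members with 95% intervals from edgeR, with all 7 libraries (circles) and without mature replicate 3 (triangles); open symbols have an adjusted p of 0.05 or more and dotted lines mark a log2 fold change of 1 in either direction. Ddx58 lay at -1.11 with all libraries and -1.05 without that replicate, and Sting1 and Zbp1 passed the adjusted p without it.

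Trex1 (ENSMUSG00000049734, chr9:109057933-109059734), for the exonuclease that removes cytosolic DNA, had 26.3, 27.6 and 17.8 CPM in immature and 39.5, 34.9, 28.6 and 54.1 CPM in mature replicates. The groups did not overlap, although mature replicate 3, at 28.6 CPM, was close to immature replicate 2, at 27.6 CPM. The log2 fold change was 0.72 (SE 0.23, 95% interval 0.19 to 1.25, edgeR adjusted p = 0.0333). This was the widest interval among the members. The call was lost without any of 5 libraries, with an adjusted p of 0.0676, 0.0521 and 0.122 without immature replicates 1, 2 and 3, and 0.0564 and 0.0661 without mature replicates 1 and 4. It held without mature replicate 2 (log2 fold change 0.78, edgeR adjusted p = 0.042) and without mature replicate 3 (0.86, adjusted p = 0.00412).

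Trex1 lies wholly inside Atrip, a gene of the DNA damage checkpoint read from the same strand, and in GENCODE M21 all 1147 exonic bases of Trex1 are also exonic in some Atrip transcript, 459 of them in protein-coding ones. Reads there cannot be assigned to either gene by position or strand, so the Trex1 value is uncertain. Atrip had 26.3, 25.8 and 32.5 CPM in immature and 35.5, 36.3, 68.2 and 21.3 CPM in mature replicates. It was highest where Trex1 was lowest in both groups (immature replicate 3 and mature replicate 3), and lowest in mature replicate 4, where Trex1 was highest. Atrip alone had a log2 fold change of 0.52 (edgeR adjusted p = 0.241).

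Summing both genes, a step chosen after these values were seen, gave a smaller spread between immature libraries. The sum was 52.6, 53.4 and 50.3 CPM in immature replicates (52.1 ± 1.58 SD, n = 3, against an SD of 5.32 CPM for Trex1 alone) and 75.0, 71.2, 96.8 and 75.4 CPM in mature replicates (79.6 ± 11.7 SD, n = 4). Every mature sum was well above every immature sum. The log2 fold change of the sum was 0.61 (SE 0.12, 95% interval 0.35 to 0.88, edgeR adjusted p = 0.00262). RNA of the joint locus therefore rose, and how much of the rise was Trex1 cannot be told apart from Atrip in these counts.

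**Figure D3:**
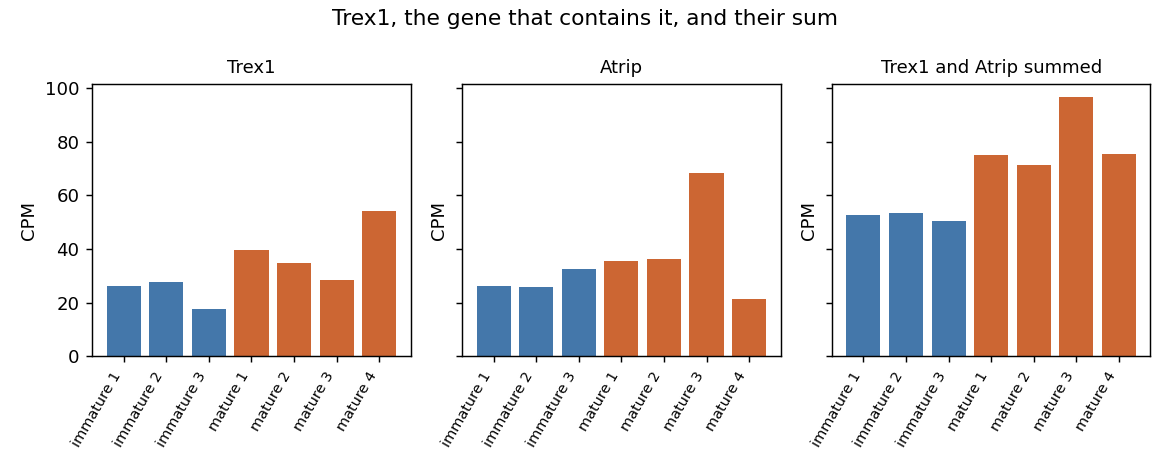
CPM in each of the 7 libraries for Trex1, for Atrip, whose exons cover it, and for their sum (bars from 0, immature blue, mature orange). The immature sums sit between 50.3 and 53.4 CPM and the mature sums between 71.2 and 96.8 CPM, while each gene alone varies in opposite directions, with mature replicate 3 high for Atrip and low for Trex1.

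Zbp1 (ENSMUSG00000027514, chr2:173206612-173218923), whose protein can start necroptosis, a lytic form of cell death, had 36.0, 30.4 and 31.5 CPM in immature and 37.7, 36.2, 40.4 and 38.8 CPM in mature replicates. All mature values were above the immature values, the nearest pair being 36.0 and 36.2 CPM. The log2 fold change was 0.23 (SE 0.092, 95% interval 0.019 to 0.44) with an edgeR adjusted p of 0.0720, and 0.0337 without mature replicate 3.

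Per transcript length, Sting1 was by far the most abundant member and Cgas the least in both groups. Sting1 was at 43.5 ± 1.38 FPKM (SD, n = 3) in immature cells, above 94.3% of tested genes, and at 52.2 ± 1.58 FPKM (SD, n = 4) in mature cells. Cgas was at 2.54 ± 0.21 and 2.68 ± 0.48 FPKM, near the middle of all tested genes. In immature cells Trex1 followed Sting1 at 18.4 FPKM, then Tbk1 at 15.8, Mavs at 15.0, Ikbke at 14.6, Dhx58 at 8.33, Zbp1 at 8.13, Ddx58 at 6.55 and Ifih1 at 4.38 FPKM. The neighbours Trex1 and Tbk1, Tbk1 and Mavs, Mavs and Ikbke, and Dhx58 and Zbp1 overlapped in that order. In mature cells the order was Sting1, Trex1 at 32.5, Mavs at 12.4, Tbk1 at 12.2, Ikbke at 11.7, Zbp1 at 10.3, Dhx58 at 8.15, Ifih1 at 3.76, Ddx58 at 3.27 and Cgas. Overlap there extended over Mavs, Tbk1, Ikbke and Zbp1 as successive neighbours, and over Ifih1, Ddx58 and Cgas. Ddx58 thus moved from above 68.3% to above 54.1% of tested genes, and Trex1 from above 86.5% to above 92.3%, with the reservation on Atrip.

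**Figure D4:**
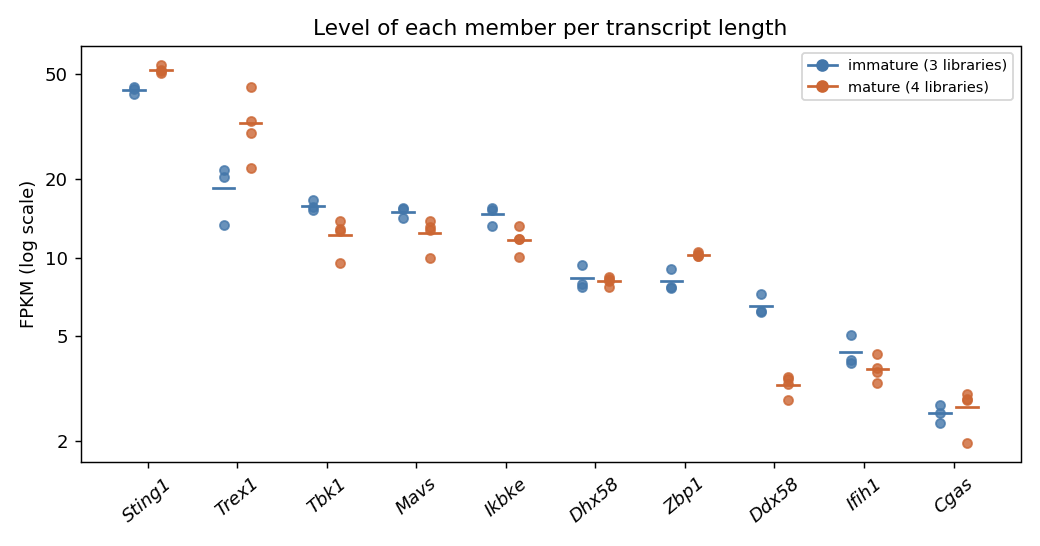
FPKM of each member on a log axis, in the order of the immature means; points are libraries and bars group means. Sting1 was highest, at 43.5 and 52.2 FPKM, Cgas lowest, at 2.54 and 2.68 FPKM, and Ddx58 fell below Ifih1 in mature cells.

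Around these members stand 9 lists of related genes, with 88 genes in the table and 86 tested. Of 19 partners of the STING axis, 1 was higher and 8 lower at adjusted p under 0.05, against 23.2% and 22.9% of all genes tested, at a median log2 fold change of -0.24. Without mature replicate 3, 5 were higher and 9 lower. Ifi204, a DNA sensor that works with STING, was at a mean of 79.5 CPM (SD 4.14) over 3 immature libraries and 17.5 CPM (SD 1.93) over 4 mature libraries. It fell by 2.19 on the log2 scale (SE 0.10, edgeR adjusted p = 9.56e-07). It belongs to a family of near-identical genes, so its reads may be shared. Enpp1, which hydrolyses cGAMP outside cells, and Nlrc3 were also past the criteria and lower, at a mean of at most 0.500 FPKM. Surf4, which returns STING from the Golgi, fell to 75.9% of the immature level (edgeR adjusted p = 0.00230), and Ddx41, a proposed DNA sensor, to 61.0% (adjusted p = 8.90e-04). These were named after their values were seen.

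Irf3, the factor TBK1 phosphorylates, had 38.6, 41.4 and 39.1 CPM in immature and 46.0, 43.6, 62.8 and 48.0 CPM in mature replicates. Its groups did not overlap, at a log2 fold change of 0.33 (SE 0.13, edgeR adjusted p = 0.0659). Without mature replicate 3 it was 0.23, with an adjusted p of 0.0111.

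Among 7 adaptors of TBK1 and IKKε, 1 was higher and 3 lower at adjusted p under 0.05, against 23.2% and 22.9% of all genes tested, and without mature replicate 3, 2 were higher and 3 lower. The largest change was in Tbkbp1, for an adaptor that holds TBK1, with a mean of 53.9 CPM (SD 1.54) over 3 immature libraries and 13.2 CPM (SD 2.46) over 4 mature libraries. Tbkbp1 fell by 2.03 on the log2 scale (SE 0.14, edgeR adjusted p = 7.52e-06). Azi2, the adaptor NAP1, fell to 55.6% of the immature level (edgeR adjusted p = 4.13e-05). Tank, the third adaptor of this kind, was at 104 and 110 CPM (log2 fold change 0.075, edgeR adjusted p = 0.586), and without mature replicate 3 its log2 fold change was 0.18 (adjusted p = 0.0126). Traf3, which links MAVS to the kinases, rose to 142% (edgeR adjusted p = 0.00983). Azi2, Tank and Traf3 were named after their values were seen.

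Of 10 partners of the RNA arm, 4 passed the adjusted p of 0.05, all of them higher and short of the fold criterion, against 46.1% of all genes tested passing and 23.2% passing and higher, and the median log2 fold change was 0.29. The 4 were Prkra, Tkfc, Pcbp2 and Trim25. Prkra, for the protein PACT that binds RIG-I and MDA5, rose to 192% of the immature level (edgeR adjusted p = 3.16e-04). Pcbp2 and Tkfc are known to restrain MAVS and MDA5, and Trim25 is a ubiquitin ligase of RIG-I. Without mature replicate 3, 5 were higher and 1 lower.

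Among 13 nucleases and nucleic acid editing genes, 5 were higher and 4 lower at adjusted p under 0.05, against 23.2% and 22.9% of all genes tested, and 3 of those lower were past the criteria. Without mature replicate 3, 4 were higher and 6 lower. Pld4, a lysosomal exonuclease, fell to 31.5% of the immature level (log2 fold change -1.67, SE 0.079, edgeR adjusted p = 8.80e-07), from 138 FPKM, the highest level in the list, to 46.9 FPKM. Dnase2a, the lysosomal endonuclease, fell to 40.5% (-1.31, SE 0.14, adjusted p = 9.01e-05). Samhd1 and Adar, which act on nucleotide pools and on double-stranded RNA, rose to 135% and 160% (edgeR adjusted p = 0.00209 and 0.00313) and were named after their values were seen. Dnase1l3 was past the criteria and higher, at 0.050 FPKM or less, and was filtered out without mature replicate 3.

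Of the 5 necroptosis partners of Zbp1, 4 were lower at adjusted p under 0.05, against 22.9% of all genes tested. Ripk3, the kinase ZBP1 binds, had 58.9, 64.0 and 57.5 CPM in immature and 15.1, 19.2, 20.5 and 18.0 CPM in mature replicates, a log2 fold change of -1.72 (SE 0.11, edgeR adjusted p = 5.31e-06). Mlkl, the pore-forming executioner that RIPK3 phosphorylates, had 29.4, 29.3 and 29.7 CPM in immature and 10.2, 7.94, 9.42 and 8.92 CPM in mature replicates, a log2 fold change of -1.69 (SE 0.11, adjusted p = 4.02e-06). For both genes every mature library was far under the immature range. Ripk1 and Casp8 were lower as well at adjusted p under 0.05, and Fadd had a log2 fold change of 0.20 (edgeR adjusted p = 0.129). The list's median was -0.64.

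Of 8 other DNA sensors, 2 were higher and 3 lower at adjusted p under 0.05, against 23.2% and 22.9% of all genes tested, and without mature replicate 3, 3 were higher and 4 lower. Ifi207 fell by 2.02 on the log2 scale (SE 0.12, edgeR adjusted p = 2.45e-06) and Ifi203 by 1.69 (SE 0.18, adjusted p = 9.18e-05). Both are relatives of Ifi204 on chromosome 1 with shared sequence. Not all genes of that stretch fell as far. Mndal fell to 74.3% of the immature level (edgeR adjusted p = 0.00470), and Ifi205 rose to 175% (adjusted p = 0.00703). Aim2, the inflammasome DNA sensor, also on chromosome 1, rose to 136% (edgeR adjusted p = 0.00431). Mndal, Ifi205 and Aim2 were named after their values were seen.

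Interferon transcripts were nearly undetected. Mature replicate 2 held all counts of both interferon genes in the table, 3 for Ifnb1 and 8 for Ifnk. Every other library had 0, and neither gene was tested. The other 10 listed interferon genes were not found by symbol in the table, so this covers only Ifnb1 and Ifnk. Of 4 receptor and receptor kinase genes, 1 was higher (Tyk2) and 1 lower (Ifnar2) at adjusted p under 0.05, against 23.2% and 22.9% of all genes tested, and without mature replicate 3, 2 were higher and 1 lower.

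The interferon-stimulated genes, downstream of both arms, moved in both directions. At adjusted p under 0.05, 9 of 20 were higher and 4 lower, against 23.2% and 22.9% of all genes tested, and without mature replicate 3, 10 were higher and 3 lower. They had a median log2 fold change of 0.51 against 0.055 over all genes. Mx1 RNA was at a mean of 58.5 CPM (SD 1.71) over 3 immature libraries and 347 CPM (SD 54.0) over 4 mature libraries. It rose by 2.57 on the log2 scale (SE 0.13, edgeR adjusted p = 1.27e-06). Its relative Mx2 rose from 2.58 to 13.4 CPM (2.37, SE 0.18, adjusted p = 1.11e-05). Ifitm3, a membrane protein that blocks viral entry, fell from 235 to 76.8 CPM (-1.61, SE 0.16, adjusted p = 5.31e-05). Irf7, the inducible interferon regulator, had 9.39, 10.6 and 13.6 CPM in immature and 9.67, 21.2, 22.2 and 20.2 CPM in mature replicates, so mature replicate 1 lay within the immature range (log2 fold change 0.71, SE 0.28, edgeR adjusted p = 0.0679). The same library had the least cardiac marker RNA of the 4, and the part of that difference was not tested.

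**Figure D5:**
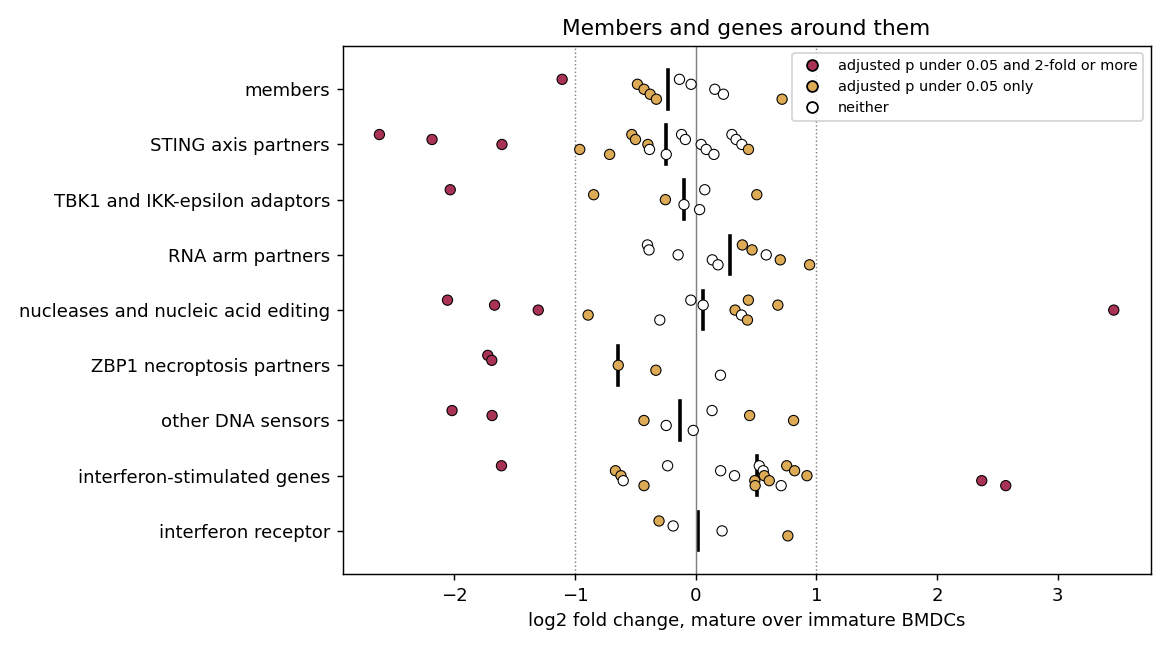
Log2 fold change (mature over immature) of the 10 members and of the tested genes of 8 related lists; each point is a gene, filled by whether it passed the adjusted p and the fold criterion, and thick bars are list medians. The necroptosis partners have the lowest median, at -0.64, and the interferon-stimulated genes the highest, at 0.51.

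The profiles most like those of 3 members were found by Pearson's r of log2 CPM over the 7 libraries, among about 6665 genes with a mean of at least 5 FPKM. For Sting1 they were Rinl (r = 0.9896), Irf2bp1 (0.9834) and Immp1l (0.9818), and for Tbk1 Rcor1 (0.9985), Col4a3bp (0.9984) and Cgnl1 (0.9965). For Ddx58 they were Isoc1 (0.9990), Atp6v0a1 (0.9986) and Snx9 (0.9986). These values are a description: the points fall into the 2 groups, so genes that differ between the groups in the same direction have high values.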

How the data were processed

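RNA of 3 immature and 4 mature BMDC libraries was analysed, grouped by the sample labels. The table deposited by the authors holds raw counts for each gene in each library and FPKM values to 2 decimals. The submitters' processing notes name cutadapt 1.9, HISAT2 2.2.1, StringTie 2.1.6, DESeq2 and edgeR without their roles, and mm9. The deposited coordinates equal those of GENCODE M21 (GRCm38) for 90.3% of shared identifiers and are given as GRCm38. Library preparation kept strand, and the strand setting of counting is not given in the sources used here.

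The counts were fitted in R 4.3.3 with edgeR 4.0.16 (low-count filter, TMM, quasi-likelihood test, Benjamini-Hochberg adjustment). SE is the log2 fold change divided by the square root of F. CPM used TMM-scaled totals. Floors and depth cover counting error only. Alternatives were DESeq2 1.42.0, other scalings, no filter, limma 3.58.1 on log2(FPKM + 1) or log2(FPKM + 0.1) with FPKM of at least 1 in 3 libraries, a replicate block, each library left out, and, after seeing the data, summed Trex1 and Atrip. On simulated counts with 200 genes changed 4-fold, edgeR recovered 200 past the criteria with 0 false calls among 17418 genes. DESeq2 recovered 200 with 0 among 27437. With counts per library total in place of FPKM, limma recovered 183 with 0 among 13247. The simulation gave every gene the same dispersion, raised and lowered equal numbers and held no outlying library. It checks the code on large changes and does not measure the error of the calls reported here.

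The members and lists were chosen with earlier results of these data known. Named were all members, Irf3, Irf7, Ifnb1, up to 4 genes a list past the criteria with a mean of at least 1 FPKM in the higher group, and the 3 most similar profiles of Sting1, Tbk1 and Ddx58. Other genes were named after their values were seen. A gene of the nuclease list that meets this rule is not reported here.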

Additional observations from a re-analysis of the deposited data

Results flagged for a closer look

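Of 31 values tested for a mature library far from the other 3, 3 stood apart by Dixon's test at its 95% critical value, where chance gives about 1.6. Irf7 in mature replicate 1 was at 9.67 CPM against 20.2 to 22.2 CPM in the others (ratio 0.839). Sting1 over Cgas in FPKM was 25.9 in mature replicate 3 against 17.8 to 18.2 (ratio 0.948). Dhx58 over Ddx58 in FPKM was 2.97 in mature replicate 3 against 2.33 to 2.38 (ratio 0.928).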

How the results depend on the processing

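Genes past the criteria numbered 4037, and 2561, 1768 and 1716 by limma on log2(FPKM + 0.1), on log2(FPKM + 1) and on log2(FPKM + 1) without a filter, 8053 with no fold change criterion, and 3646 to 4052 with a library left out. Members past the criteria numbered 1, and 0 with library totals only and in the 3 limma fits, where Ddx58 kept an adjusted p under 0.05, and 1 in each leave-one-out fit. Scaling by library totals only shifted log2 fold changes up by a median of 0.11 over all genes, against the main fit. The 3 limma fits, on FPKM without TMM factors, shifted them up by a median of 0.0775 to 0.0970. Members with an adjusted p under 0.05 numbered 6, 3 by limma without a filter, and 3 (without immature replicate 1) to 8 (without mature replicate 3) with a library left out. Sting1 and Zbp1 passed the adjusted p in 6 of 15 alternatives each, among them all 3 limma fits. Tbk1 and Ikbke passed it in 14 of 15, Mavs in 10, Trex1 in 9, and Cgas and Dhx58 in none. Of the members, Cgas alone reversed, to 0.074 with library totals only, 0.058, 0.046 and 0.046 in the limma fits, 0.0054 without immature replicate 1 and 0.084 without mature replicate 3 (-0.11 to 0.084 with a library left out), at an adjusted p of 0.522 to 0.985. The cause of these changes was not tested. Genes past the criteria in the related lists numbered 15, 15 by DESeq2 and 14 without mature replicate 3.

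Same-numbered libraries did not deviate together (correlations of 0.029, -0.0011 and 0.014), so the numbers were not taken as pairs. With the replicate block, 3616 genes and 1 member were past the criteria, and 5 members had an adjusted p under 0.05, without Ifih1. With 3 and 4 libraries, changes near the size of the members' SE were not detectable. The members had at least 484 counts in each library and Ifnb1 at most 3.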
